A study of Mus musculus with 6 samples.

Results

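Chromatin accessibility around 8 genes of sterol synthesis and its control was examined by ATAC-seq, which maps open chromatin by the sites at which the transposase Tn5 inserts its adapters. The genes were Srebf2, Srebf1, Insig1, Hmgcs1, Idi1, Fdft1, Sqle and Lss, and their regions were all those overlapping the gene body or the 15 kb on either side (mm10, GENCODE M21). The 6 deposited peak lists were merged into 112852 regions, of which 48 belonged to these 8 genes. The samples were L-GMP cells, the leukemia stem cells (LSCs) of mice with MLL-AF9-driven acute myeloid leukemia, grown in medium with IL3 and sorted before tagmentation. There were 3 control samples and 3 samples treated for 24 h with MMF (mycophenolate mofetil), an inhibitor of inosine monophosphate dehydrogenase and thereby of guanine nucleotide synthesis. All 6 samples carried the MLL-AF9 oncogene on a background labelled wild type, and the sources used here differ on the dose and time of MMF for this assay. The labels give no age and do not say whether the samples of a group came from separate mice or cultures, so the p-values measure the spread between these samples only.

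Cholesterol is made from acetyl-CoA through mevalonate, isoprenoids and squalene. The pathway is switched on by the SREBP transcription factors, which are held in the endoplasmic reticulum by the INSIG proteins when sterols are plentiful and are cut and released to the nucleus when sterols are scarce. Srebf2 encodes SREBP2, the main activator of sterol synthesis, Srebf1 encodes the SREBP1 proteins, which mainly drive fatty acid synthesis, and Insig1 is both a brake on SREBP processing and an SREBP target. Hmgcs1 makes HMG-CoA, Idi1 converts the isoprenoid isopentenyl diphosphate to its isomer, Fdft1 makes squalene, Sqle oxidizes squalene and Lss closes the epoxide into lanosterol, the first sterol. Growing leukemia cells need sterols and isoprenoids for new membranes and for the modification of signalling proteins.

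The sequence upstream of the start sites is shown because the accessible regions below lie over it. SREBP proteins are known to bind the sterol regulatory element, searched here as TCACNCCAC on either strand, and to act beside NF-Y and SP1, searched as CCAAT and GGGCGG. RefSeq (GRCm38.p6) gave 8 promoter windows of 300 bases for 6 of the 8 genes, 3 of them at starts of Srebf1. The first 250 bases of 6 of them, which end at the base before the start site, are printed 5′ to 3′ on the strand of the gene. Capitals mark the sterol regulatory element or its shorter form TCACNCCA, the CCAAT box (ATTGG on the other strand) and the E-box CACGTG.
Srebf2, chr15:82147019-82147268, plus strand: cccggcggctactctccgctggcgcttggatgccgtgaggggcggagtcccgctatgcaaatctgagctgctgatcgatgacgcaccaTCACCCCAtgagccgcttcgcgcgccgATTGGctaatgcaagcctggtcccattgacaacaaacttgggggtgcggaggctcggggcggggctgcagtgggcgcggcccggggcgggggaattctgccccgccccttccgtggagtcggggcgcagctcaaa
Hmgcs1, chr13:119690101-119690350, plus strand: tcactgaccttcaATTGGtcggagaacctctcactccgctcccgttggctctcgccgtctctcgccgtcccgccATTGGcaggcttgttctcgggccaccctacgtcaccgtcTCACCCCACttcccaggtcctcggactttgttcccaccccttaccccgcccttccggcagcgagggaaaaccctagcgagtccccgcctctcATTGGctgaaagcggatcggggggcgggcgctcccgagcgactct
Insig1, chr5:28071162-28071411, plus strand: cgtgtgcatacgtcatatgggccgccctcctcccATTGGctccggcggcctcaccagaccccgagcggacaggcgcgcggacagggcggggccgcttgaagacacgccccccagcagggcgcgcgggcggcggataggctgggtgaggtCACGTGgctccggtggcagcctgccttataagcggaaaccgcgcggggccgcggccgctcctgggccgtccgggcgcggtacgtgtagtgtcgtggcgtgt
Idi1, chr13:8885356-8885605, plus strand: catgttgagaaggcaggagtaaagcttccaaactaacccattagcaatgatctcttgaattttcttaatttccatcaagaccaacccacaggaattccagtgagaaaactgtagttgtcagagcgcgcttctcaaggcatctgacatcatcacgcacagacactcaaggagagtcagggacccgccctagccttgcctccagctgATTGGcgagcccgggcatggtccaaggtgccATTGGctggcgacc
Lss, chr10:76531355-76531604, plus strand: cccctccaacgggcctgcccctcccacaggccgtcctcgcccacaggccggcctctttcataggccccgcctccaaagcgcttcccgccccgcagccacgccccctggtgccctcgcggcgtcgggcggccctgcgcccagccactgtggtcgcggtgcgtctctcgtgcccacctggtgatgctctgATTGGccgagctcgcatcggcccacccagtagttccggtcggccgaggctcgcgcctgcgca
Srebf1, short first coding exon, chr11:60210472-60210721, minus strand: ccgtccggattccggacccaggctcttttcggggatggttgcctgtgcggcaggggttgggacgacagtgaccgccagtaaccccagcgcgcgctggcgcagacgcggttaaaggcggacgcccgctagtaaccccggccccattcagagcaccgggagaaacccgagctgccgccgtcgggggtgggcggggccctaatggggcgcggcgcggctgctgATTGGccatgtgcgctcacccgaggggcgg

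The Hmgcs1 window held the full sterol regulatory element, beginning 137 bases before the start site, and 3 CCAAT boxes in the printed bases. The Srebf2 window held the shorter form, beginning 162 bases before the start, with a CCAAT box 135 bases before it. The Idi1 window held 2 CCAAT boxes, and the Insig1 window held an E-box 101 bases before the start. Over the 8 windows of 300 bases, 1 held TCACNCCAC against 1.24% of 32851 RefSeq promoters, and 7 held CCAAT against 37.4%. The SP1 motif GGGCGG was in 7 of the 8, against 35.7% of all promoters, and CACGTG was in 1, against 7.15%. Over the accessible regions themselves, 3 of the 48 held TCACNCCAC (6.25%; 95% Wilson interval 2.15% to 16.8%, counting error only), against 1.74% of all 112852 regions. The CCAAT box was in 20 of the 48 (41.7%; Wilson interval 28.8% to 55.7%), against 36.1% of all regions. The 3 with the sterol element were the promoter region of Hmgcs1, the region upstream of the first Srebf1 start and an intron region of Fdft1. A match in these letters is not a bound site.

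Accessibility of a region was measured as its scaled summit reads, the whole reads counted over a peak's summit, solved from the deposited fold enrichment and p, divided by a size factor for the sample. The control lists held 58496 to 63911 peaks and the MMF lists 80893 to 86556, and the median summit held 14 to 19 reads. As a check of the labelled cell type, promoter peaks were present in all 6 samples for 6 of 8 markers of myeloid progenitors and MLL-AF9 leukemia, in none of the 6 for Mpo, and in 1 control and 3 MMF lists for Elane. No list held a promoter peak for any of 5 T cell markers, and of the other markers Ebf1 (1 of 5 for B cells) and Klf1 (1 of 5 for erythroid cells) had one in all 6. The summed scaled reads over the 8 myeloid markers ranged from 290 to 341 in control and from 264 to 292 in MMF samples, where Elane added to 1 control and all 3 MMF sums. Single markers differed in direction: Cebpa, Hoxa9 and Meis1 were lower (log2 differences -0.49, -0.53 and -0.58, limma adjusted p = 0.00148, 0.0127 and 0.00117), though none of the 3 by fold enrichment, while Csf3r (0.56, adjusted p = 0.121) and Spi1 (0.30, adjusted p = 0.168) were above 0 without passing. With reads scaled by depth, estimated from the genome-wide background of each list, Csf3r and Spi1 were higher (0.73 and 0.47, limma adjusted p = 0.0404 and 0.0252). Cebpa and Meis1 were still lower by depth (-0.31 and -0.40, limma adjusted p = 0.0490 and 0.0261). By fold enrichment Csf3r was higher (0.71, limma adjusted p = 0.0274) and Spi1 did not pass (0.26, adjusted p = 0.334). The part of these shifts in the results below was not tested. In bulk samples, fewer cells with an open region and less accessibility per cell cannot be told apart.

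The 8 windows held 30 to 33 peaks in the control lists and 37 to 43 in the MMF lists (31.3 ± 1.53 and 39.7 ± 3.06, SD, n = 3; two-sided exact permutation p = 0.1, which is the lowest value possible with 3 against 3 samples). The MMF lists were longer throughout the genome, and as a share of each list the windows held 0.0510% ± 0.00234 (SD, n = 3) of control and 0.0469% ± 0.00242 (SD, n = 3) of MMF peaks (exact permutation test, two-sided, p = 0.2). Of the 48 regions, 24 had a peak in all 6 lists and are called shared, 14 had one in 2 to 5 lists without a full split between groups, and 7 in a single list. The other 3 were gained, with a peak in all 3 MMF lists and in none of the control lists, a share of 6.25% against 6.0% of all regions. None was lost, the opposite pattern, which 0.182% of all regions showed. The share of gained regions was near the background.

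All 3 gained regions were weak. One lay upstream of Srebf1 in an exon of the neighbouring gene Tom1l2 (chr11:60228531-60229117) and held 9.75, 14.75 and 12.04 scaled reads in MMF samples 1, 2 and 3. Another lay in an intron of Fdft1 (chr14:63157603-63157956), with 5.999, 4.61 and 6.02 scaled reads. The last lay downstream of Lss, within 1000 bp of the start of the noncoding gene Gm15343 (chr10:76570944-76571392), with 10.5, 11.98 and 10.03 scaled reads. A missing peak in the control lists says only that no call was made there, since the lists hold called peaks only.

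On the main scale, 9 of the 24 shared regions were lower and 2 higher in MMF-treated LSCs (limma, adjusted p below 0.05 over 41182 shared regions), and the 9 included the promoter regions of Srebf2, Hmgcs1, Insig1, Fdft1, Idi1 and Lss. The share called lower was 37.5%, against 11.8% of all shared regions, and the share called higher was 8.33%, against 13.8%. None of the 9 was called lower when reads were scaled by the estimated depth or when fold enrichment over the local background was tested. The split of 2 higher and 9 lower became 2 higher and 0 lower on both by limma. At an unadjusted limma p below 0.05, 3 were lower by depth and 0 by fold enrichment. The share of all regions at an unadjusted p below 0.05 is not given here, so such counts, also those below, have no background. Of all shared regions, 3.09% were called lower and 21.8% higher by depth. By fold enrichment 0.323% of all were lower and 13.4% higher, so few lower calls were made anywhere on that scale. Scaling by depth moved the median log2 difference of all shared regions from -0.01 to 0.16, and fold enrichment moved it to 0.16. The median of the 24 shared regions was -0.28 on the main scale, -0.10 by depth and 0.06 by fold enrichment, below the median of all shared regions on each of the 3 scales. The plot of the shared regions on 3 scales gives each of them.

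**Figure D1:**
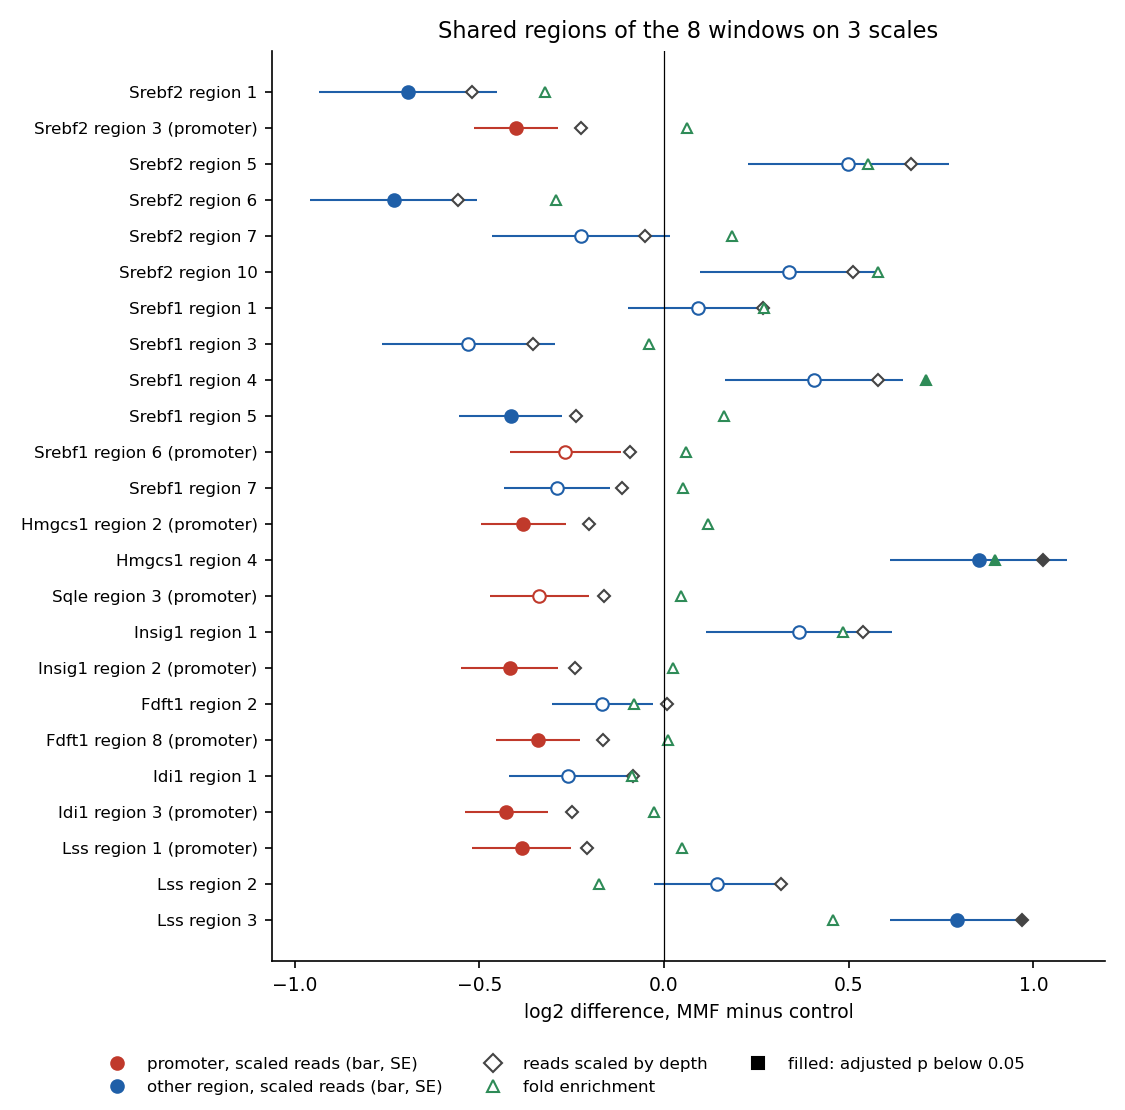
Log2 difference (MMF minus control, n = 3 each) of the 24 shared regions of the 8 genes, with circles and SE bars for scaled summit reads, diamonds for reads scaled by depth and triangles for fold enrichment, and filled symbols for an adjusted p below 0.05. The promoter regions lie between -0.43 and -0.27 on the main scale and between -0.03 and 0.12 by fold enrichment, while Hmgcs1 region 4 is called higher on all 3 scales, Lss region 3 on the first 2 and Srebf1 region 4 by fold enrichment alone.

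Promoter regions were taken as the strongest shared region within 1000 bp of an annotated start of each gene, and all 8 genes had one. For Srebf2 (chr15:82146748-82147384) the scaled summit reads were 106, 113 and 111 in control samples 1, 2 and 3 and 77.2, 87.6 and 85.2 in the MMF samples. All 3 MMF samples lay under the lowest control sample, and the level was 24.3% lower in MMF (110 ± 3.30 against 83.4 ± 5.42, SD, n = 3; log2 difference -0.40 ± 0.11 SE, limma adjusted p = 0.00596). In fold enrichment, which divides by the local background, the same region held 18.1, 17.5 and 18.6 in control and 18.6, 19.4 and 18.6 in MMF samples, and the groups overlapped (log2 difference 0.06, limma adjusted p = 0.699). The direction at the Srebf2 promoter therefore rested on the scale.

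At the Hmgcs1 promoter (chr13:119689947-119690762) the control samples held 101, 122 and 104 scaled reads and the MMF samples 82.5, 91.3 and 77.2. The groups did not overlap, and the level was 23.4% lower (log2 difference -0.38 ± 0.12 SE, limma adjusted p = 0.0103). The Idi1 promoter (chr13:8885417-8886215), which also covers a start of the noncoding gene Gm48574, held 105, 138 and 128 in control and 81.7, 94.9 and 98.3 in MMF samples. It had the largest log2 difference of the 8 (-0.43 ± 0.11 SE, limma adjusted p = 0.00318), again without overlap. The Idi1 call held without any 1 sample, while the Hmgcs1 call was lost without control replicate 2 (adjusted p = 0.0801) or MMF replicate 3 (0.0591).

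The Fdft1 promoter (chr14:63177600-63178486) held 120, 104 and 103 scaled reads in control and 87.0, 84.8 and 85.2 in MMF samples, which were close to one another and all lower (log2 difference -0.34 ± 0.11 SE, limma adjusted p = 0.0198). The Lss promoter (chr10:76531044-76531886) held 85.3, 71.0 and 70.3 in control and 55.5, 60.8 and 56.2 in MMF samples, also without overlap (log2 difference -0.39 ± 0.13 SE, limma adjusted p = 0.0259). Without control replicate 1, the highest sample at both promoters, the adjusted p became 0.111 for Fdft1 and 0.143 for Lss. The Fdft1 call was also lost without MMF replicate 2 (0.0576), and the Lss call without MMF replicate 1 (0.0901) or MMF replicate 3 (0.0693). The Sqle promoter (chr15:59314497-59315592) held 72.6, 75.4 and 72.7 in control and 54.7, 62.7 and 57.2 in MMF samples. It did not overlap between groups but just missed the threshold (log2 difference -0.34 ± 0.13 SE, limma adjusted p = 0.0513).

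At Insig1, the SREBP brake, the promoter region (chr5:28070754-28072197, shared with the noncoding gene Gm26608) held 77.9, 106 and 72.7 scaled reads in control and 62.2, 63.6 and 63.2 in MMF samples. The SD was 0.70 among the MMF samples and 17.9 among the control samples (n = 3 each), and the groups did not overlap (log2 difference -0.42 ± 0.13 SE, limma adjusted p = 0.0135). Without control replicate 2 the log2 difference was -0.27 (adjusted p = 0.188).

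Srebf1 has 3 annotated RefSeq starts, and each had its own shared region. The most upstream start, at 60222581 on chr11, gives a transcript whose first coding exon, of 418 bp, lies beyond the other 2 starts, and its region (chr11:60222739-60223422) held 57.9, 80.8 and 60.6 scaled reads in control and 60.7, 48.9 and 52.2 in MMF samples. The middle start, at 60220627, opens a first coding exon of 91 bp, the form known as SREBP-1a. Its region (chr11:60220265-60220942), the strongest of the 3 on average over the 6 samples, held 68.4, 51.3 and 82.4 in control and 51.7, 44.2 and 72.2 in MMF samples. The groups overlapped at both starts (log2 differences -0.29 ± 0.14 SE and -0.27 ± 0.15 SE, limma adjusted p = 0.128 and 0.185). At the middle start the limma adjusted p was 0.0328 without control replicate 2 and 0.0343 without MMF replicate 3. It was 0.295 without control replicate 1, 0.625 without control replicate 3, 0.389 without MMF replicate 1 and 0.683 without MMF replicate 2. The downstream start, at 60210471, opens a first coding exon of 19 bp, the form known as SREBP-1c and the one that LXR and insulin are known to induce. Its region (chr11:60210296-60210834) held 73.7, 63.4 and 70.3 in control and 48.7, 56.2 and 50.1 in MMF samples, without overlap and 25.2% lower (log2 difference -0.41 ± 0.14 SE, limma adjusted p = 0.0211). The call was lost without control replicate 1 (adjusted p = 0.0777), MMF replicate 1 (0.0899) or MMF replicate 3 (0.0622). By fold enrichment the difference at the downstream start was 0.16 (limma adjusted p = 0.353). Differences between the 3 starts were not tested.

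**Figure D2:**
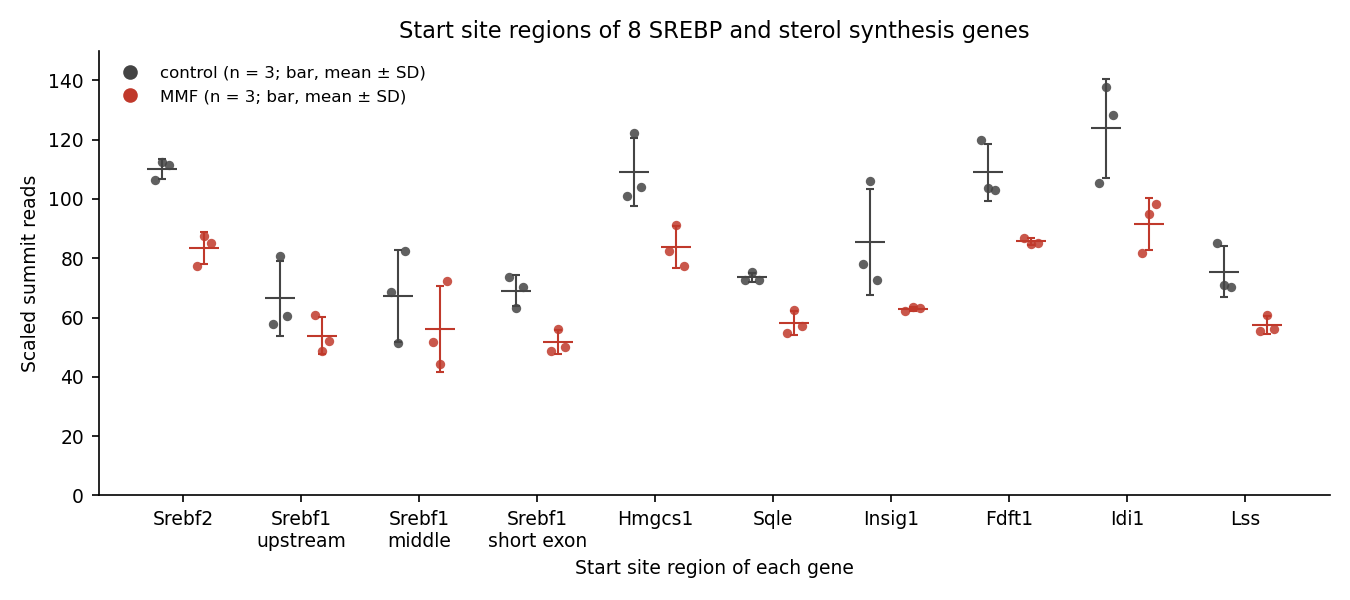
Scaled summit reads (y axis, from 0) in each of 3 control and 3 MMF samples at the start site regions of the 8 genes, with all 3 Srebf1 starts, where points are samples and bars the mean ± SD. The MMF points lie below all control points at 7 of the 8 promoters and at the downstream, short-exon start of Srebf1, and overlap with them at the other 2 Srebf1 starts.

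In all, 6 of the 8 promoters were called lower, against 28.7% of the 11556 shared promoter regions of protein-coding genes, and 7 of 8 did not overlap between groups with MMF below control, against 41.6%. The 8 promoters were strong regions, with means of 61.7 (Srebf1) to 108 (Idi1) scaled reads over the 6 samples. Of the 3573 promoter regions in that range of means, 47.7% were called lower and 61.9% lay below control without overlap, and their median log2 difference was -0.31, against -0.38 for the 8. The share of these 3573 regions with a larger fall ranged from 20.5% for Idi1 to 61.9% for Srebf1, so each of the 8 lay within the bulk of promoters of like strength. Scaled by depth, 9.10% of the 3573 and 0 of the 8 were called lower by limma, and 1 of the 8 had an unadjusted p below 0.05. By fold enrichment 7 of the 8 were above 0 and 0 of the 8 had an unadjusted p below 0.05. Their median on that scale was 0.05, against -0.02 for the 3573 and 0.01 for all shared promoter regions. Thus the 8 lay below promoters of like strength on the main scale and above them by fold enrichment. Of the 3573, 0.336% were called lower by fold enrichment.

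**Figure D3:**
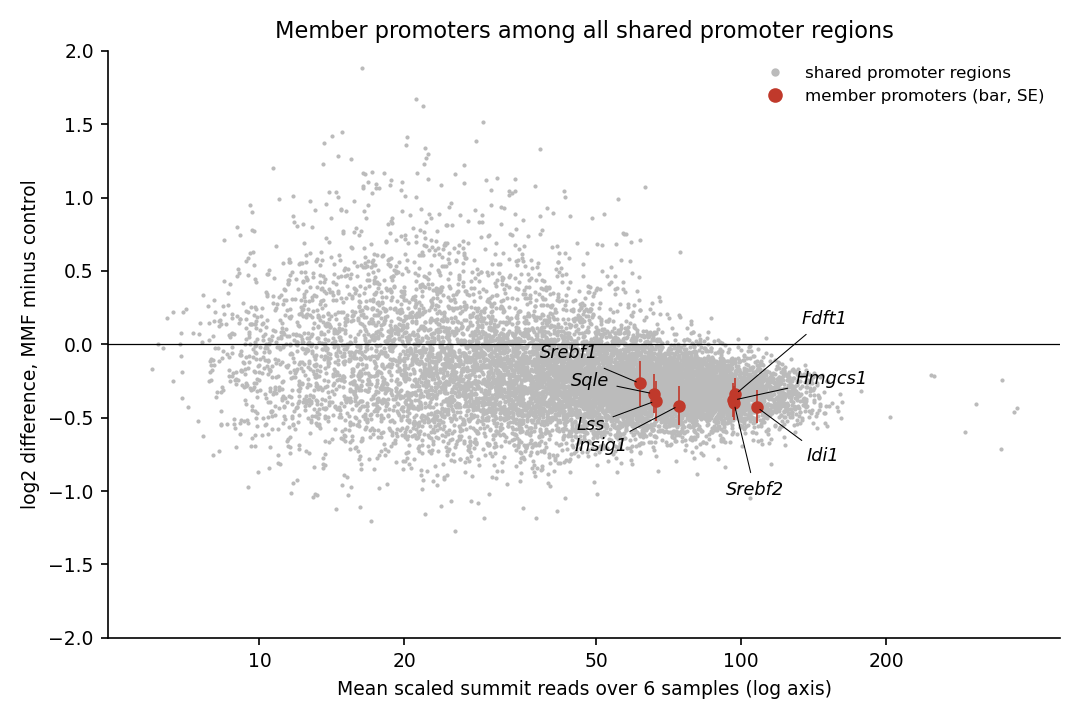
Log2 difference (MMF minus control) against mean scaled summit reads over 6 samples (log axis) for 11525 of the 11556 shared promoter regions, with 31 beyond the axes not drawn, and the 8 member promoters in red with SE bars. The members sit among the strong promoters, nearly all of which lie below 0 on this scale.

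Apart from the promoters of protein-coding genes in GENCODE M21, the windows held 15 shared regions, 7 below 0 and 8 above, with a median log2 difference of 0.09 against 0.14 for the 29626 such regions in all. Of the 15, 2 were higher (18.3% of such regions in all were) and 3 were lower (5.13% in all), and the 3 included the downstream start of Srebf1 described above. That region and the one 158 bp from the most upstream Srebf1 start are at RefSeq starts not within 1000 bp of a start in GENCODE M21 basic. Without both, 5 regions were below 0 and 8 above, 2 were lower and 2 higher, and the median was 0.14.

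The 2 regions that rose lay near Hmgcs1 and within Lss. The Hmgcs1 region (region 4 of its window, chr13:119713086-119713829) lay beyond the 3′ end of the gene, with its summit 22792 bp from the Hmgcs1 start and in an intron of the neighbouring gene Nim1k. It held 26.3, 12.02 and 13.3 scaled reads in control and 30.7, 35.0 and 24.1 in MMF samples. Control sample 1 lay above MMF sample 3, and the other control samples were below every MMF sample (17.2 ± 7.91 against 29.9 ± 5.52, SD, n = 3; log2 difference 0.85 ± 0.24 SE, limma adjusted p = 0.00553). It was called on all 3 scales, with a log2 difference of 1.03 by depth (adjusted p = 0.000624) and 0.90 by fold enrichment (adjusted p = 0.0248). Over 12 alternatives its limma adjusted p ranged from 0.000446 to 0.0598 and its log2 difference from 0.63 to 1.19, and the 3 alternatives that lost the call were ranks in place of reads (0.0598), without control replicate 2 (0.0569) and without MMF replicate 2 (0.0547).
The reference around its summit is shown because this region was called on all 3 scales, and the printed bases hold none of the 4 motifs searched.
Hmgcs1 region 4, chr13:119713156-119713355, plus strand: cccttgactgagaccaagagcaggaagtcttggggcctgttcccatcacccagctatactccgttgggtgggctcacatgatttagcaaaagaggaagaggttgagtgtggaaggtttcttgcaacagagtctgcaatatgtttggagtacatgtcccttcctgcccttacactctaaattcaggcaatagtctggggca

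The Lss region (region 3, chr10:76542643-76543312) lay in an intron with its summit 11257 bp into the gene. It held 35.8, 21.8 and 24.2 scaled reads in control and 45.7, 47.0 and 47.1 in MMF samples, without overlap, and the MMF level was 1.71 times that of control (log2 difference 0.79 ± 0.18 SE, limma adjusted p = 0.000803). The difference was 0.97 by depth (adjusted p = 3.27e-05) and 0.46 by fold enrichment, where it missed the threshold (adjusted p = 0.139). A neighbouring intron region of Lss (region 2, chr10:76541295-76541863) held 36.9, 37.1 and 38.8 in control and 36.7, 39.6 and 49.1 in MMF samples, and the groups overlapped (limma adjusted p = 0.571). The reference around the summit of region 3, shown beside that of the Hmgcs1 region as the other one that rose, holds none of the 4 motifs in the printed bases, although the whole region holds CCAAT.
Lss region 3, chr10:76542764-76542963, plus strand: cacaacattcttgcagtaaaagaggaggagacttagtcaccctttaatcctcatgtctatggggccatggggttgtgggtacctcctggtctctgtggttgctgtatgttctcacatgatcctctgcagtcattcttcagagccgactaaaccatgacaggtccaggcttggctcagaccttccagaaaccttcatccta

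The other 2 regions that fell flanked the Srebf2 promoter. One lay 8435 bp upstream of the Srebf2 start, in an intron of the neighbouring gene Ccdc134 (region 1, chr15:82138614-82139050), and held 30.5, 27.3 and 19.4 scaled reads in control and 14.2, 18.4 and 14.04 in MMF samples (log2 difference -0.69 ± 0.24 SE, limma adjusted p = 0.0251). The other lay 16652 bp into Srebf2, in an intron (region 6, chr15:82163723-82164000), and held 28.4, 25.1 and 31.5 in control and 18.0, 17.5 and 15.04 in MMF samples (log2 difference -0.73 ± 0.23 SE, limma adjusted p = 0.0120). The groups did not overlap at either. Both kept a negative difference by depth (-0.52 and -0.56, adjusted p = 0.105 and 0.0615) and by fold enrichment (-0.32 and -0.29, adjusted p = 0.329 and 0.366), without passing the threshold. The call at region 1 was lost without control replicate 1 (adjusted p = 0.126), control replicate 2 (0.0749), MMF replicate 1 (0.0928) or MMF replicate 3 (0.0829), and that at region 6 without MMF replicate 3 (0.0536).

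Srebf2 also carries Mir33, the gene of miR-33, a microRNA known to repress the cholesterol exporter Abca1. It lies in an intron of Srebf2 at chr15:82198122-82198190, and its mature 5p strand is printed with the seed, bases 2 to 8, in capitals.
mmu-miR-33-5p: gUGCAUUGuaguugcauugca
The shared region over Mir33 (region 10, chr15:82198110-82198724) held 15.8, 19.7 and 15.8 scaled reads in control and 22.5, 19.4 and 23.1 in MMF samples. The groups overlapped at MMF sample 2, and the difference did not pass the test (log2 difference 0.34 ± 0.24 SE, limma adjusted p = 0.305). A weaker intron region of Srebf2 (region 5, chr15:82156687-82157250) held 10.5, 12.02 and 8.48 in control and 14.998, 17.5 and 12.04 in MMF samples, where the lowest MMF and the highest control sample were nearly level (log2 difference 0.50 ± 0.27 SE, limma adjusted p = 0.170).

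Among the remaining shared regions, a coding exon of Srebf1 (region 4, chr11:60205046-60205484) held 17.9, 13.1 and 20.6 scaled reads in control and 21.7, 20.3 and 26.1 in MMF samples. It was called higher by fold enrichment only (log2 difference 0.71, adjusted p = 0.0328; 0.41 and adjusted p = 0.209 on the main scale). The strongest region of the Insig1 window outside the promoter lay 7217 bp upstream (region 1, log2 difference 0.37 ± 0.25 SE, limma adjusted p = 0.288), and that of Fdft1 lay in an intron of the protease gene Ctsb (region 2, -0.17 ± 0.14 SE, adjusted p = 0.387). Sqle had no shared region other than its promoter. Other promoters in the windows were weak or did not pass. The shared promoter region of Wdr37 and Gm48374 in the Idi1 window had a log2 difference of -0.26 ± 0.16 SE (limma adjusted p = 0.229), the region at Mir6921 in the Srebf1 window had -0.53 ± 0.23 SE (adjusted p = 0.0829), those of Shisa8 and Neil2 were in 2 control and 3 MMF lists each, and that of Zfp572 in 1 control list.

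The window edge set some of these members. The region nearest to an edge on the inside was in an intron of Ctsb in the Fdft1 window, 814 bp within the edge, with peaks in 2 control and 2 MMF lists. Just outside, a region 343 bp past the edge of the Insig1 window had peaks in 1 control and 2 MMF lists. A shared region 755 bp past the edge of the Fdft1 window held 22.9 scaled reads in control and 35.5 in MMF samples on average. That region was called higher (log2 difference 0.63 ± 0.21 SE, limma adjusted p = 0.0181) but was not a member.

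Of all 11690 genes with a shared promoter region other than that of Srebf2, the 3 whose 6 values followed those of the Srebf2 promoter most closely were Gclm (Pearson r = 0.999 over 6 samples), Tacc3 and Tmem129, the last 2 sharing a single region (r = 0.996). Of the members Sqle was closest (r = 0.983) and Srebf1 least close (r = 0.386). The 6 points are 2 groups of 3 libraries, and 944 of the 11690 genes were at least as close as Idi1 (r = 0.930).

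The wider pathway was described through 4 lists of genes. Shares of all promoter regions are for adjusted p only, and counts at an unadjusted p have no such background. Of 18 other genes of sterol synthesis, 17 had a shared promoter region, 6 were lower (35.3%, against 28.7% of all shared promoter regions and 47.7% of those as strong as the 8 member promoters) and none was higher (limma; 8 and 0 at an unadjusted p below 0.05), and Idi2 had no promoter peak. The median log2 difference of the 17 was -0.28, against -0.26 for all shared promoter regions and -0.31 for the strong ones, and their median level, 86.4 scaled reads, was within the strong range. Those that fell included Mvk, which phosphorylates mevalonate, Sc5d, Acat2 and Ggps1. At Mvk, the strongest fall of the list, the control samples held 143, 140 and 130 scaled reads and the MMF samples 96.7, 94.0 and 79.2 (log2 difference -0.61 ± 0.11 SE, limma adjusted p = 1.49e-05). Mvk and Acat2 were also lower by depth (2 of 17, against 6.53% of all shared promoter regions and 9.10% of the strong ones). None of the list passed by fold enrichment (Mvk -0.17, adjusted p = 0.258). Pmvk moved least, at -0.02 ± 0.15 SE.

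Of 9 genes of SREBP control and sterol uptake, 8 had a shared promoter region, 5 were lower (62.5%, against the same 28.7% and 47.7%) and none was higher (limma; 6 and 0 at an unadjusted p below 0.05), with a median of -0.39. By depth 2 of the 8 were lower, against 6.53% of all shared promoter regions and 9.10% of the strong ones. The median level of the list, 72.3 scaled reads, was again within the strong range. Mylip, a ubiquitin ligase gene induced by LXR, fell most (log2 difference -0.60 ± 0.13 SE, limma adjusted p = 0.000261), and Lrp8, Scap, the escort of SREBP, and Stard4 were also among those that fell. By fold enrichment none of the list passed, and Mylip was at -0.10 (adjusted p = 0.713). Mbtps2, a protease that releases SREBP, moved least (-0.11 ± 0.18 SE).

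Fatty acid synthesis genes, the main targets of SREBP1, had the lowest median of the 4 lists. Of 12 genes, 10 had a shared promoter region, 7 were lower (70%, against 28.7% of all shared promoter regions) and none was higher (limma; 8 and 0 at an unadjusted p below 0.05), with a median of -0.48. By depth 4 of the 10 were lower, against 6.53% of all shared promoter regions and 9.10% of the strong ones. The median level of the list, 51.8 scaled reads, was below the strong range, where 47.7% were called lower on the main scale. Elovl6, which lengthens palmitate, held 48.4, 45.9 and 63.0 scaled reads in control and 20.997, 24.9 and 22.1 in MMF samples, and every MMF sample was below 25 while every control sample was above 45. The log2 difference was -1.18 ± 0.18 SE (limma adjusted p = 9.47e-07), and Elovl6 was the 1 gene of the 4 lists that was also lower by fold enrichment (-0.73, adjusted p = 0.0288). The desaturase genes Fads1 and Fads2 followed (-0.87 ± 0.17 SE and -0.99 ± 0.23 SE, limma adjusted p = 0.000116 and 0.00101), both also lower by depth. Acly and Fasn, at the entry and the synthase step, were at -0.56 and -0.48, and Elovl5 and Scd2 were the other 2 that fell. Gpam was the 1 shared promoter above 0, at 0.38 ± 0.22 SE (adjusted p = 0.202).

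Of 6 genes of LXR signalling and cholesterol efflux, 5 had a shared promoter region. Their median level, 20.0 scaled reads, was the lowest of the 4 lists. Abcg1, a cholesterol exporter induced by LXR, was higher, with 20.0, 13.1 and 14.5 scaled reads in control and 24.7, 25.8 and 22.1 in MMF samples (log2 difference 0.61 ± 0.24 SE, limma adjusted p = 0.0491), as were 2.19% of all shared promoter regions. It was also higher by depth (limma adjusted p = 0.01002), as were 4.15% of all shared promoter regions. By fold enrichment it just missed the threshold (0.70, adjusted p = 0.0527). None of the 5 was called lower by limma (1 at an unadjusted p below 0.05), and Nr1h2, which encodes LXRβ, was the lowest at -0.31 ± 0.13 SE (adjusted p = 0.0724). Over the 4 lists 18 of 40 promoters were called lower (45%), against 28.7% of all shared promoter regions and 47.7% of the strong ones. By depth 8 of the 40 were lower, against 6.53% and 9.10%, and by fold enrichment 1 was, against 0.355% and 0.336%. The median level of the 40 was 69.0 scaled reads, but some lay outside the strong range, such as Fads2 (21.7) and Mvk (114). The strong promoters are therefore not a background matched in level to the 40. The plot of the promoter regions by list sets them beside the 8 members.

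**Figure D4:**
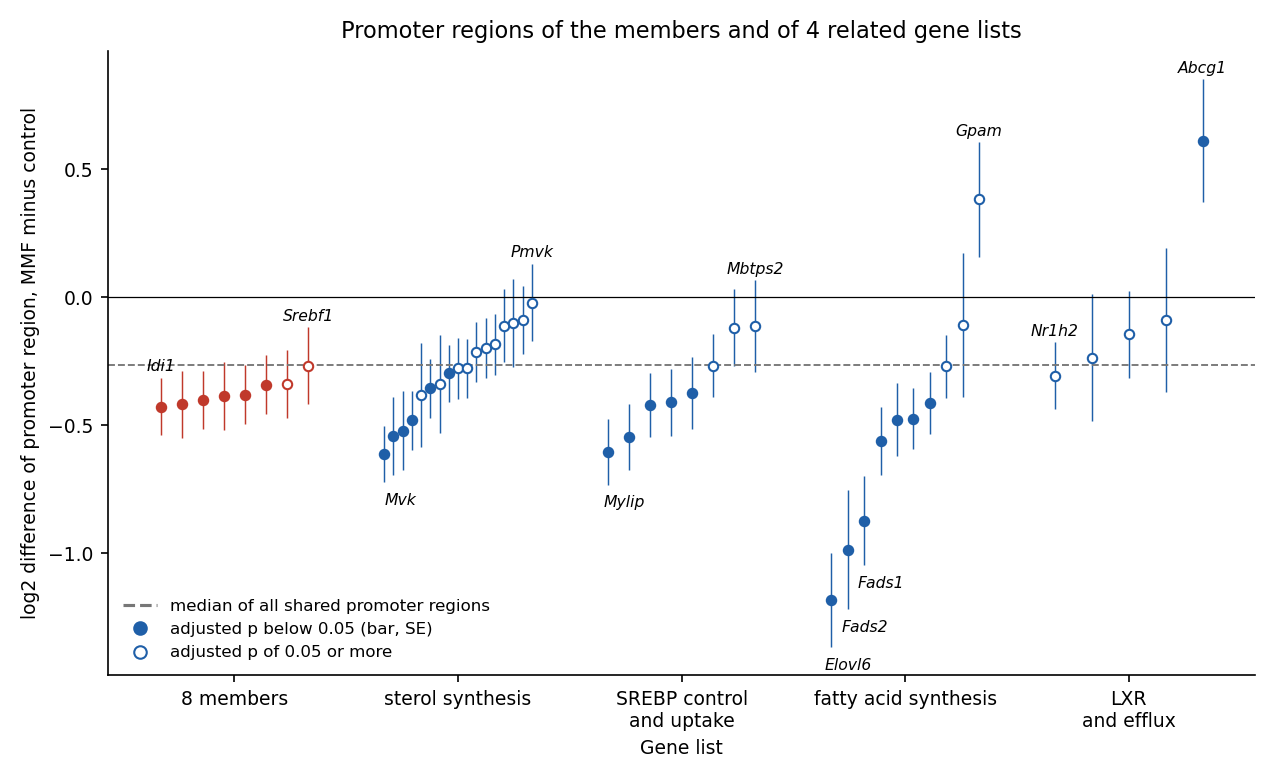
Log2 difference (MMF minus control, n = 3 each) of the promoter regions of the 8 members and of the genes of 4 related lists, with SE bars and filled points for an adjusted p below 0.05; the dashed line is the median of all shared promoter regions, -0.26. Most members and sterol genes lie near the dashed line, Elovl6, Fads2 and Fads1 lie farthest below it, and Abcg1 is the 1 called above 0.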

How the data were processed

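Tn5-tagmented DNA of 3 control and 3 MMF samples had been sequenced and aligned to mm10 with Bowtie2, and the authors called peaks in each sample separately with MACS2; versions are not given in the sources used here. The deposited lists hold a fold enrichment over the local background (a ratio) and the −log10 p and −log10 q of each summit. From the deposited fold enrichment and −log10 p, the whole reads over each summit were solved under the Poisson model of the caller, within 0.1 of a whole number for at least 99.9983% of peaks. Peaks overlapping by 1 bp were merged, and peaks outside the main chromosomes (up to 0.270% per list) were dropped. Reads were scaled by the median of ratios over shared regions. For the scaling by depth, the most common solved background of each list, taken as its genome-wide background, stood in for sequencing depth. Library depths themselves were not used. Log2(scaled reads + 0.5) was tested with limma 3.58.1 (R 4.3.3; trend, two-sided, Benjamini-Hochberg over 41182 regions, adjusted p below 0.05), on the shared regions only, so regions missing from any list have no fold change. Each summit value is 1 small count, and intervals cover counting error only. The solving of reads and the limma fit were each tested on simulated data. Tables were made with Python 3.11.15, pandas 2.3.3, scipy 1.17.1 and pysam 0.24.0. Named were the 8 genes, regions gained, lost or called, the strongest region outside promoters, other starts in the windows, and listed pathway genes called or highest or lowest in a list; Srebf2 region 5 and Srebf1 region 4 were named after their values were seen. The members and lists were chosen with earlier results of these data known. The reads and the authors' differential analysis were not used here. Some listed pathway genes that were called are not reported by name here. Alternatives are described in the closing section.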

Additional observations from a re-analysis of the deposited data

How the results depend on the processing

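The calls of lower accessibility depended on the scale. Scaling by depth left 0 regions called lower, 0 promoters called lower and a median log2 difference of -0.102, and fold enrichment left 0, 0 and 0.0554. Normal scores of ranks within each list left 0 regions called lower, 0 higher, 0 promoters and a median of 0.0660, all by limma. The promoter differences turned positive with ranks for Srebf2 (0.111), Srebf1 (0.0308), Hmgcs1 (0.235), Sqle (0.0576), Fdft1 (0.0244) and Lss (0.0743). By fold enrichment they turned positive for Srebf2 (0.0622), Srebf1 (0.0592), Hmgcs1 (0.118), Sqle (0.0469), Insig1 (0.0246), Fdft1 (0.0113) and Lss (0.0478). The cause was not tested. Windows of 5 kb held 1 gained region, and windows of 50 kb held 8 gained, 1 lost and 4 called higher. Leaving out each sample in turn gave 5 to 9 regions called lower (5 without MMF replicate 3), 1 to 2 higher (1 without control replicate 2 or MMF replicate 2), 4 to 6 promoters called lower, 3 to 5 gained regions (5 without MMF replicate 3), medians of -0.37 to -0.21 and 6.67 to 9.67 more peaks in MMF lists. At equal list length that excess was 2 peaks, and 7 promoters were called lower. With the replicate number as a block, 9 regions were lower, 2 higher and 6 promoters lower. Same-numbered samples did not deviate together (r = -0.0011, 0.0040 and -0.0025 over regions). Such small counts cannot decide whether samples of the same number share a mouse or culture. A median summit of 14 to 19 reads limits what weak regions can show.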
